A study of Mus musculus with 6 samples.

Results

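Vitamin A is used in tissues as retinoic acid, which cells make from retinol in a pair of oxidation steps: retinol dehydrogenases such as Rdh10 give retinal, and the aldehyde dehydrogenases Aldh1a1, Aldh1a2 and Aldh1a3 give retinoic acid. Rbp4 carries retinol in blood, Stra6 is the membrane receptor that takes retinol up from Rbp4, Crabp2 carries retinoic acid to its nuclear receptors, Cyp26b1 breaks retinoic acid down, and Rarb is one of the receptors and is itself a known target of retinoic acid. In the developing brain the meninges are a known source of retinoic acid, and in the adult brain endothelial cells of the blood-brain barrier are known to carry Stra6. These 9 genes were chosen by name, with earlier results of the same data in view, from the 23494 genes found in any of the 3 deposited count tables, and 9 of 9 were present in each table. Their levels chose them in part (Aldh1a1 for a cluster of naïve pericytes and Aldh1a3 for a cluster of injured cells), so those levels are given as a description.

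The study asked how cortical pericytes of 2 mouse lines respond to injury. Both lines carried Ai14-flx, a tdTomato reporter, with a tamoxifen-dependent Cre under the NG2 promoter in one line (NG2-Cre-ERT2/Ai14-flx) and the Tbx18 promoter in the other (Tbx18-CreERT2/Ai14-flx), so tdT+ cells are those that used the promoter, or descend from cells that did. NG2 is also a marker of oligodendrocyte precursor cells (OPCs), and each line labels more than pericytes. Mice were 3 to 4 months old, every group received tamoxifen, and animals were pooled into 1 droplet library of tdT+/DAPI- sorted cortical cells for each of 6 groups: naïve, physical injury (saline injected into the cortex) and ischemic injury (ET-1/L-NAME injected), in each line, with injury 7 days after tamoxifen and 3 days before collection.

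The 3 NG2 libraries held 4306 naïve, 2563 physical injury and 3586 ischemic injury cells, and the 3 Tbx18 libraries held 686, 3845 and 2047 cells, 17033 in all. Median depth ranged from 2806 unique molecular identifiers (UMIs, each counting 1 captured transcript) per cell in naïve Tbx18-tdT+ cells to 9232 in ischemic Tbx18-tdT+ cells. Since each group was 1 library, groups could not be tested against each other. Counts of a gene were summed over the cells of a deposited cluster in a library and are given as CPM (counts per 1000000 UMIs of the same cells), followed in brackets by the exact Poisson 95% interval. They hold counting error alone and say nothing of how animals or sorts vary. A ratio between libraries is called past the fold where it reached 2-fold, the higher library had at least 10 CPM, and the exact interval of the log2 ratio left out 0. Ratios were taken within a cluster with at least 50 cells in both libraries.

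Cluster numbers are those of the deposited tables, and the names of line clusters are those of the study. In the NG2 line, clusters 0, 1, 2 and 10 are pericytes, 3 smooth muscle cells, 4 oligodendrocytes, 5 endothelial cells, 6 OPCs, 7 radial glial precursors (RGPs), 8 mesenchymal-like pericytes and 9 microglia. In the Tbx18 line, cluster 0 is endothelial, 1 smooth muscle, 2 pericytes, 3 microglia, 4 vascular-genic pericytes, 5 fibroblasts and 6 glial precursors. Marker sums matched most of these names, but 3 did not. In Tbx18 cluster 4, the summed pericyte markers were at 15468 CPM in naïve cells and at 131 and 35 CPM after physical and ischemic injury, so the injured cells are called cluster 4 here. In Tbx18 cluster 3, macrophage and antigen-presenting markers summed to 21863 and 18512 CPM after injury, above microglial markers at 4585 and 3586 CPM, while its 76 naïve cells carried pericyte markers at 21173 CPM. In NG2 cluster 7, the 17 naïve cells led with hemoglobin transcripts (43497 CPM) and had a median of 987 UMIs. A total of 30 cell barcodes occurred in more than 1 library, with 0 to 5 for each pair of libraries.

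The member genes lie on several chromosomes of mm10. Rdh10 is at chromosome 1, 16105774 to 16133734 (+ strand), Aldh1a1 at chromosome 19, 20492715 to 20643465 (+), Aldh1a2 at chromosome 9, 71215789 to 71296243 (+) and Aldh1a3 at chromosome 7, 66390890 to 66427517 (-). Rbp4 is at chromosome 19, 38116629 to 38125281 (-), Stra6 at chromosome 9, 58063788 to 58153996 (+), Crabp2 at chromosome 3, 87948666 to 87953376 (+), Cyp26b1 at chromosome 6, 84571414 to 84593908 (-) and Rarb at chromosome 14, 16430839 to 16819156 (-). Because Rarb is both a member and a known target of the pathway, the bases before a RefSeq start of Rarb (GRCm38.p6, chr14:16575483-16575569, - strand), inside the annotated span of the gene, are shown with the repeat known as a retinoic acid response element in capitals:
Rarb upstream: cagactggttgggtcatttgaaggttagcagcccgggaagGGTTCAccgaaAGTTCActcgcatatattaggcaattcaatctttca
The capitals mark a direct repeat of 2 hexamers with a 5-base spacer, which ends 37 bases before the start. Both strands were searched for 2 hexamers in the same orientation with that spacer, where each could be AGGTCA, the variant AGTTCA, the variant GGGTCA or, lastly, the variant GGTTCA. The repeat was found in 32 of 32851 RefSeq windows (0.0974%) that run from 250 bases before to 50 after a start. Windows were at hand for 6 of the 9 members, 11 windows in all, and 1 of these held the repeat. The match is a description of letters and says nothing of binding in these cells.

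**Figure D1:**
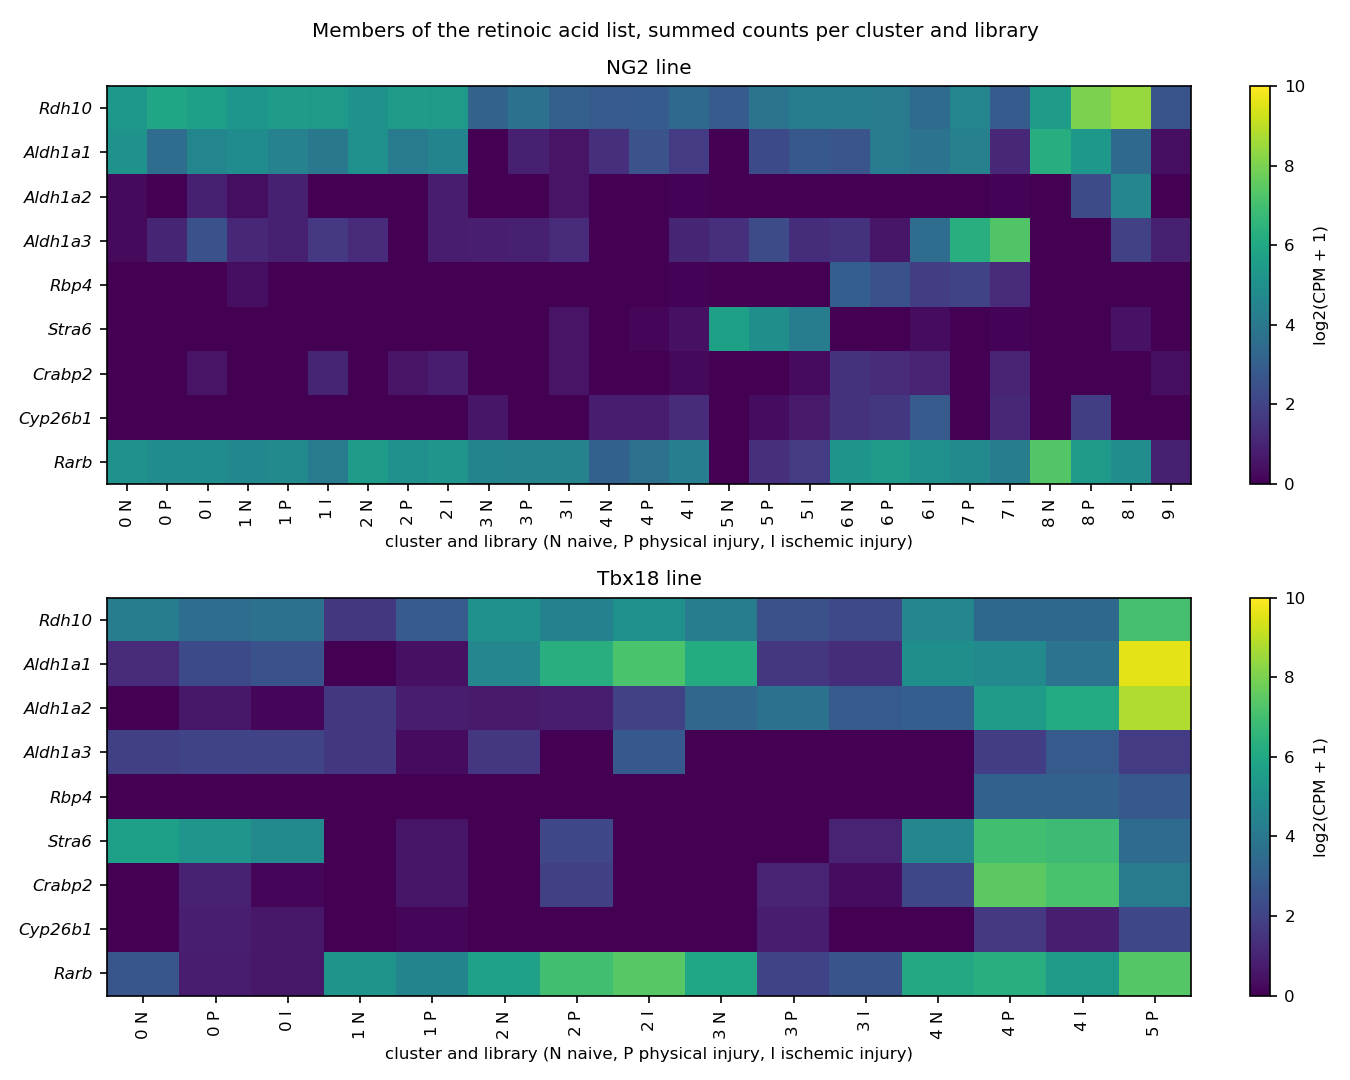
Level of each member (rows) as log2(CPM + 1) in each cluster and library of at least 50 cells (columns) of the NG2 line (upper panel) and the Tbx18 line (lower panel). Aldh1a3 is bright in NG2 cluster 7, Rdh10 in NG2 cluster 8 after injury, Stra6 in the endothelial clusters and Tbx18 cluster 4, Crabp2 in Tbx18 cluster 4, and Aldh1a1 with Aldh1a2 in Tbx18 cluster 5.

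The members were far from evenly spread over clusters. Total counts also follow the number of cells, the depth and the mix of cell types of each line, so they do not compare the lines. Over the cells of each table, Rdh10 had 2755 counts in the NG2 line and 703 in the Tbx18 line, Rarb 2167 and 1040, and Aldh1a1 963 and 1207. Aldh1a3 had 2556 counts in the NG2 line and 109 in the Tbx18 line, whereas Stra6 had 238 and 1381, Crabp2 34 and 714, and Aldh1a2 70 and 736. Cyp26b1 (90 and 34 counts) and Rbp4 (57 and 37) were near the limit of detection in both lines. Their highest levels in groups of at least 50 cells were 6.08 CPM in OPCs after ischemic injury for Cyp26b1, and 7.69 CPM in Tbx18 cluster 4 after physical injury for Rbp4. Retinoic acid breakdown by Cyp26b1 and retinol carriage by Rbp4 can therefore be followed only weakly at this depth.

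Rdh10, the retinol dehydrogenase of the first step, rose in mesenchymal-like pericytes of the NG2 line (cluster 8) after both injuries. Its level there was 44.6 CPM (30.7 to 62.7) in naïve cells, 257 CPM (222 to 295) after physical injury and 355 CPM (332 to 380) after ischemic injury, from 33, 195 and 877 counts in 177, 81 and 240 cells. Both injured libraries lay above the naïve one, by 5.75-fold after physical injury (log2 ratio 2.52, 1.99 to 3.10) and by 7.96-fold after ischemic injury (2.99, 2.49 to 3.54), while ischemic minus physical injury was 0.47 (0.24 to 0.70), not past the fold. Cells with an Rdh10 UMI made up 10.7% in the naïve library, 48.1% after physical and 54.2% after ischemic injury, at median depths of 4026, 7733 and 8444 UMIs. With cells thinned to 1000 UMIs, the shares were 3.45, 12.5 and 17.3%. For comparison, smooth muscle cells of the same libraries, with a median of 10167 and 8325 UMIs after physical and ischemic injury, had shares of 7.44 and 5.78%. The cells differed widely. After physical injury 1 cell held 42 of the 195 Rdh10 counts, and without it the level was 208 CPM. After ischemic injury the cells' own levels averaged 269 CPM when each cell had the same weight.

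Rarb went the other way in the same cells. The receptor gene was at 161 CPM in naïve cells of cluster 8, at 40.8 CPM after physical injury and at 29.2 CPM after ischemic injury, from 119, 31 and 72 counts. It fell 3.94-fold (log2 ratio -1.98, -2.60 to -1.40) and 5.52-fold (-2.46, -2.91 to -2.03). Aldh1a1 was at 74.4, 39.5 and 9.72 CPM in these groups. Its ratio was not past the fold after physical injury, and it fell after ischemic injury both against naïve cells (-2.94, -3.69 to -2.22) and against physical injury (-2.02, -2.86 to -1.20). Aldh1a2, which is the main retinaldehyde dehydrogenase of the early embryo, had 0 counts in naïve cells, 3 after physical injury (3.95 CPM) and 58 after ischemic injury (23.5 CPM), which is at least 5.79-fold higher than a naïve floor of 3 counts. Of these 58 counts, 45 were in 1 cell, and without it the level was 5.31 CPM. All 6 ischemic cells with an Aldh1a2 UMI also had an Rdh10 UMI.

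In cluster 8, 2 of 9 members were past the fold after physical injury and 4 of 9 after ischemic injury. Of the 9, only 3 and 4 reached 10 CPM in these comparisons and could be called. The shares of all genes tested that were past the fold were 11.6% and 18.0%. Between the injuries, 2 of 9 members were past the fold, beside 5.56% of all genes tested. Aldh1a2 is among the members past the fold after ischemic injury and between the injuries, and both of its calls are marginal. Without 1 cell its ischemic injury level was 5.31 CPM, under the 10 CPM that a call needs. The median log2 ratio of all genes from naïve to ischemic injury in this cluster was -0.154. Several marker sums moved with these members. The mesenchymal markers that name the cluster summed to 1907 CPM in naïve, 1256 in physical injury and 851 CPM in ischemic injury cells, pericyte markers to 25021, 25835 and 23194 CPM, smooth muscle markers to 2470, 5544 and 3244 CPM, and fibroblast markers to 362, 592 and 586 CPM. In cells with at least 1 UMI of the mesenchymal markers, chosen after the values were seen, Rdh10 was at 42.7, 275 and 368 CPM, and Rarb at 166, 41.8 and 30.2 CPM. These levels are close to those of the whole cluster, which the same markers name, so this choice of cells cannot separate a change of makeup. The part of the cluster's makeup in these ratios was not tested.

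**Figure D2:**
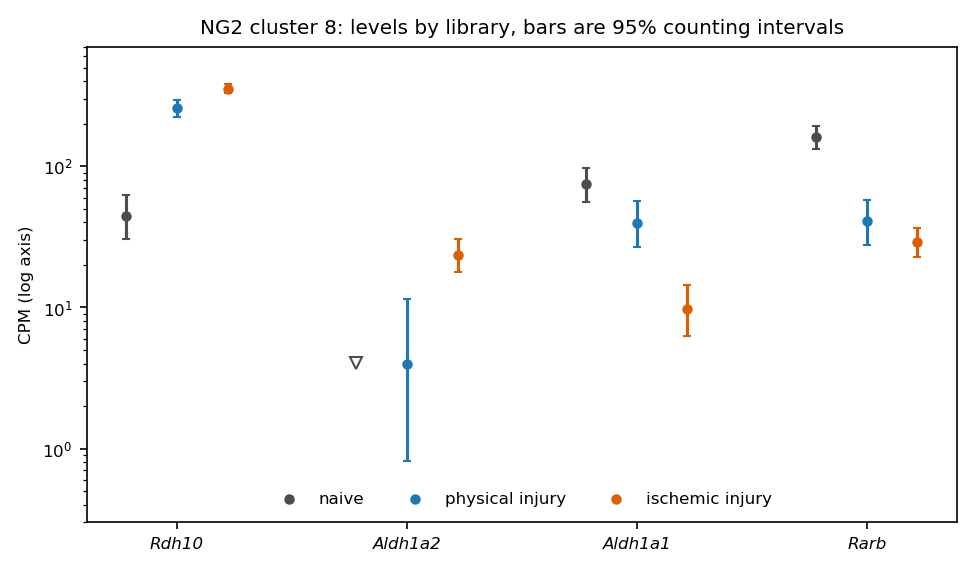
Levels in CPM (log axis) of Rdh10, Aldh1a2, Aldh1a1 and Rarb in NG2 cluster 8 for the naïve, physical injury and ischemic injury libraries, with points at the level and bars for 95% counting intervals. An open triangle marks 0 counts, drawn at the floor of 3 counts. Rdh10 stands at 44.6, 257 and 355 CPM, and Rarb at 161, 40.8 and 29.2 CPM.

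In the more numerous pericytes of the NG2 line, the members that reached 10 CPM (Rdh10, Rarb and Aldh1a1) mostly stayed within the fold. Rdh10 was at 39.1, 59 and 49.2 CPM in naïve, physical injury and ischemic injury cells of cluster 0, at 36.8, 44.7 and 40.6 CPM in cluster 1 and at 33, 43.6 and 41.7 CPM in cluster 2. Rarb was at 34.2, 27.2 and 28.4 CPM in cluster 0, at 24.2, 25.7 and 16 CPM in cluster 1 and at 43.6, 31.3 and 35.7 CPM in cluster 2. None of these ratios was past the fold. Aldh1a1 in cluster 0 was the exception, with 33 CPM in naïve, 10.8 CPM in physical injury and 23.3 CPM in ischemic injury cells. It fell 3.06-fold after physical injury (log2 ratio -1.61, -2.34 to -0.96) and was 2.17-fold higher after ischemic than after physical injury (1.11, 0.37 to 1.91), 1 of 9 members in each comparison, beside 1.44% and 2.77% of all genes. In clusters 1 and 2 Aldh1a1 was at 27.8, 20.7 and 14.9 CPM and at 31.8, 16.4 and 21.6 CPM, within the fold. Smooth muscle cells (cluster 3) had almost no Aldh1a1 (0, 0.824 and 0.433 CPM), little Rdh10 (7.97, 12.4 and 7.35 CPM) and steady Rarb (21.6, 21 and 21.2 CPM). In clusters 1, 2 and 3, 0 of 9 members were past the fold after physical injury, beside 2.60, 1.51 and 1.44% of all genes. Only 3, 3 and 2 of the 9 reached 10 CPM there and could be called. After ischemic injury 0 of 9 were past the fold in clusters 0, 1, 2 and 3, beside 1.43, 3.37, 2.31 and 1.68%. Of the 9, 3 could be called in each of clusters 0, 1 and 2, and 1 in cluster 3. Between the injuries 0 of 9 were past the fold in clusters 1, 2 and 3, beside 4.38, 2.53 and 2.41%.

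Among naïve cells alone, clustered for both lines together, Aldh1a1 was highest in cluster 7, a cluster of cells with pericyte markers whose leading gene was Spp1. Its level there was 126 CPM (104 to 152) in NG2-tdT+ cells, from 111 counts, and 69 of 244 cells (28.3%) had a UMI. The thinned share was 12.9%, and smooth muscle cells of cluster 4 had 0 counts. In the 27 Tbx18-tdT+ cells of cluster 7, Aldh1a1 was at 348 CPM (247 to 475), but 30 of its 39 counts were in 2 cells with at least 5 UMIs of fibroblast markers, and the other 25 cells were at 97.8 CPM. Cluster 9, whose leading genes were Ccl19 and Il11, came next in NG2-tdT+ cells with 94.9 CPM (71.3 to 124). The other pericyte clusters of NG2-tdT+ cells (0, 1, 2, 3 and 8) ranged from 13.3 to 35.2 CPM, and cluster 5 stood at 2.88 CPM (0.783 to 7.36). Rarb did not share this order: its highest level was 188 CPM (154 to 227) in cluster 9, against 46.5 CPM in cluster 7 and 34.5 CPM in cluster 5. When the same naïve NG2-tdT+ cells were clustered with injured cells, the cells of cluster 7 were divided over pericyte clusters 0 (77 cells), 1 (102) and 2 (63), with 2 in cluster 8, and the highest naïve level of Aldh1a1 became 74.4 CPM in cluster 8. Naïve Tbx18-tdT+ and NG2-tdT+ cells could be compared in clusters 0, 2 and 10. There 0 of 9 members were past the fold, beside 10.9, 8.66 and 11.4% of all genes. Only Aldh1a1, Rdh10 and Rarb reached 10 CPM in clusters 0 and 2, and only Stra6 and Rdh10 in cluster 10.

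In the Tbx18 line, pericytes (cluster 2) held more Aldh1a1 and Rarb after injury. Aldh1a1 was at 23.5 CPM in naïve, 78.1 CPM in physical injury and 142 CPM in ischemic injury cells, from 35, 116 and 50 counts in 226, 433 and 86 cells. It rose 3.32-fold (log2 ratio 1.73, 1.17 to 2.32) and 6.03-fold (2.59, 1.94 to 3.26). In the ischemic library 17 of the 50 counts were in 1 cell, and without it the level was 97.8 CPM. Rarb was at 52.5, 125 and 170 CPM and rose 2.39-fold (1.26, 0.87 to 1.66) and 3.25-fold (1.70, 1.19 to 2.20). Rdh10 was at 33, 20.2 and 31.2 CPM, not past the fold, whereas Aldh1a1 and Rarb were past it in both injured libraries. In each comparison with naïve cells 2 of 9 members were past the fold, beside 13.8% (physical injury) and 12.9% (ischemic injury) of all genes, and between the injuries 0 of 9 were, beside 6.05%.

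The makeup of Tbx18 cluster 2 differed between the libraries as well. Pericyte markers summed to 30599, 19424 and 18878 CPM in naïve, physical injury and ischemic injury cells, and mesenchymal markers to 346, 1668 and 2242 CPM, at median depths of 6547.5, 2540 and 3791.5 UMIs. In a division made after the values were seen, injured cells with at least 1 UMI of the mesenchymal markers had Aldh1a1 at 115 CPM (193 cells, physical injury) and 165 CPM (60 cells, ischemic injury), and cells without any had 14.6 and 18.2 CPM. Rarb divided the same way, at 184 and 188 CPM with and 25.6 and 73 CPM without. In naïve cells the levels with and without were 26.4 and 18 CPM for Aldh1a1, and 62.9 and 31.9 CPM for Rarb. After physical injury, Aldh1a1 and Rarb in the cells without mesenchymal marker UMIs were near the levels of naïve cells without them. The Aldh1a1 levels of both rest on few counts, so this likeness is not read further. After ischemic injury, the Rarb level of 73 CPM without them rests on 4 counts in 26 cells (19.9 to 187). The Aldh1a1 level of 18.2 CPM in the same cells rests on fewer counts still, so it is not read further. Deeper cells are more likely to hold a marker UMI, so the division also follows depth. What the cells with mesenchymal marker UMIs contribute to the ratios was not tested.

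**Figure D3:**
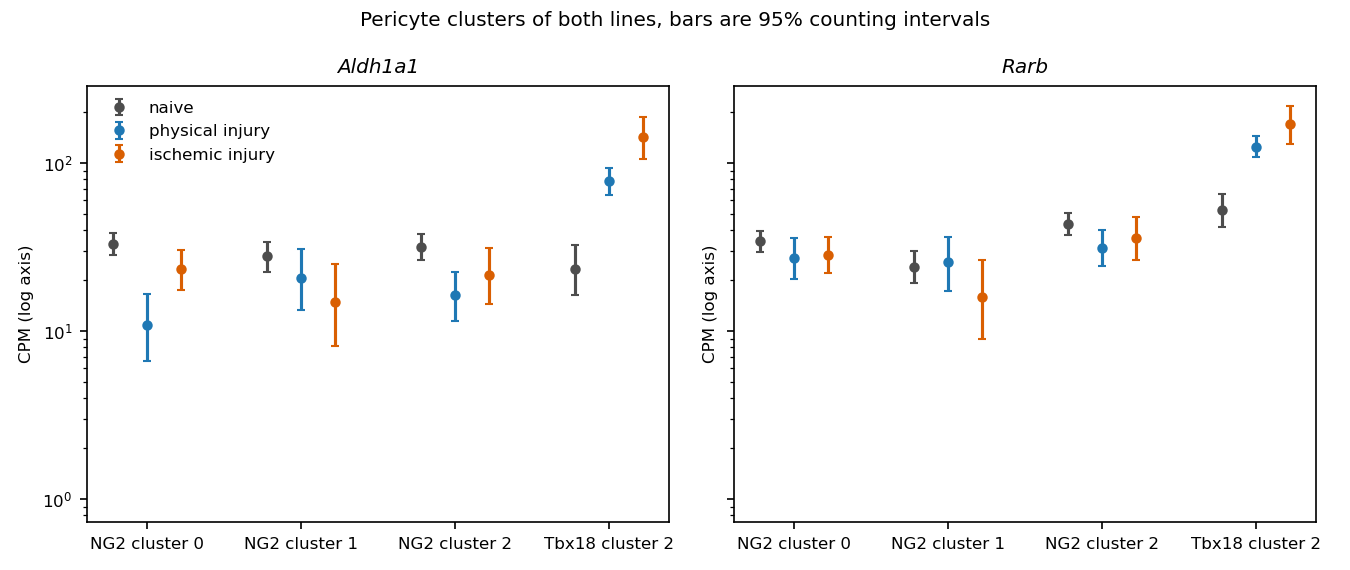
Levels in CPM (log axis) of Aldh1a1 and Rarb in pericyte clusters 0, 1 and 2 of the NG2 line and cluster 2 of the Tbx18 line, by library, with bars for 95% counting intervals. In the Tbx18 line the injured libraries (78.1 and 142 CPM for Aldh1a1, 125 and 170 CPM for Rarb) lie above the naïve one. In the NG2 line they lie below it, except for Rarb in cluster 1 after physical injury (25.7 against 24.2 CPM).

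Aldh1a3 was highest in RGPs, the cells for which it was chosen. In NG2 cluster 7 it had 0 counts in the 17 naïve cells, where 3 counts would be 101 CPM, and it was at 75.3 CPM (59 to 94.6) in 76 cells after physical injury and at 155 CPM (149 to 162) in 438 cells after ischemic injury, from 73 and 2351 counts. An Aldh1a3 UMI was found in 25% of physical injury cells and 71% of ischemic injury cells, at median depths of 12792 and 37572.5 UMIs. Thinning to 1000 UMIs left out 24 shallower cells of each library. The thinned shares were 7.69% after physical injury (2.14 to 18.5, 4 of 52 cells) and 15.5% after ischemic injury (12.1 to 19.3), with overlapping intervals. Other cell types of the same libraries gave the background of the share without thinning. It was 0.596 to 1.08% in smooth muscle cells over the 3 libraries. It was 1.83% in ischemic injury microglia at a median of 19742 UMIs and 1.86% in ischemic injury oligodendrocytes at 29600.5 UMIs. Higher shares were found in physical injury endothelial cells (3.22%, at 7522.5 UMIs) and in ischemic injury OPCs (8.16%). In RGPs the ischemic minus physical injury log2 ratio was 1.04 (0.71 to 1.40), a 2.06-fold difference that just passed the fold.

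That difference between the injuries depended on which cells were counted. After physical injury 1 cell held 23 of the 73 counts, and 8 of 76 cells held 79.5% of them. Without the first of these cells the level was 52.2 CPM. With the cell of the most Aldh1a3 UMIs left out of each library the log2 ratio was 1.54. With the study's own depth and mitochondrial limits applied again to the deposited cells, the levels were 98.5 CPM after physical and 146 CPM after ischemic injury, and the ratio of 0.57 was no longer past the fold. After ischemic injury the counts were spread more widely: 29% of the 438 cells had no Aldh1a3 UMI, 96 had 1 or 2, 84 had 3 to 5, 65 had 6 to 10, 40 had 11 to 20 and 26 (5.94%) had more than 20. Dividing these cells by the proliferation marker Top2a made little difference, with 151 CPM in cells with at least 3 Top2a UMIs and 161 CPM in the others.

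**Figure D4:**
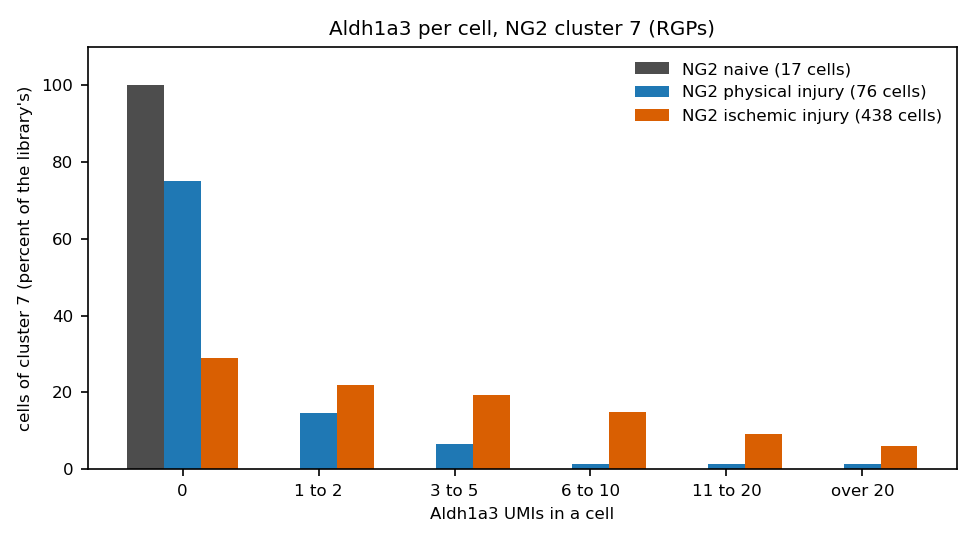
Percent of the cells of NG2 cluster 7 (vertical axis) with each number of Aldh1a3 UMIs (horizontal axis), for the 17 naïve, 76 physical injury and 438 ischemic injury cells. In ischemic injury 29% of cells had none and 5.94% had more than 20, whereas the 17 naïve cells had none.

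The other members of the synthesis path were lower than Aldh1a3 in RGPs of both injured libraries. Aldh1a1 was at 19.6 CPM after physical and 1.19 CPM after ischemic injury (19 counts in 8 cells against 18 counts in 16 cells), a 16.5-fold lower level (log2 ratio -4.04, -5.06 to -3.03). Of the 8 physical injury cells, 1 also held an Aldh1a3 UMI. In the same library Aldh1a1 was at 20.7 CPM in pericytes of cluster 1 and 16.1 CPM in OPCs. The part of the cluster's makeup in this ratio was not tested. Rdh10 was at 22.7 and 6.6 CPM, a log2 ratio of -1.78, but 14 of the 22 physical injury counts were in 1 cell. Without the cell with the most Rdh10 UMIs in each library the ratio was -0.37. Rarb was at 26.8 and 17.8 CPM, within the fold. Thus 3 of 9 members were past the fold in this cluster, beside 8.29% of all genes. Among ischemic injury RGPs, 98 cells held both an Aldh1a3 and a Rarb UMI and 67 held both Aldh1a3 and Rdh10, where the product of the 2 shares gives 83.1 and 54.7 cells. Cells of greater depth hold more of any gene, so these counts are a description.

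OPCs (cluster 6) had Aldh1a3 at 1.76 CPM in naïve cells (1 count), 0.528 CPM after physical injury (2 counts) and 10.9 CPM after ischemic injury (43 counts in 24 of 294 cells, 8.16%). The ischemic minus physical injury log2 ratio was 4.36 (2.42 to 7.46), and the ischemic minus naïve ratio 2.63 (0.08 to 7.97). RGP markers summed to 1768, 2280 and 2602 CPM in OPCs of the same libraries, and their part in the Aldh1a3 level was not tested. Aldh1a3 was the only member past the fold in OPCs in these comparisons, 1 of 9 in each, beside 3.45% (between the injuries) and 9.15% (against naïve cells) of all genes. Both calls are marginal. In ischemic injury 1 cell held 6 of the 43 counts, and without it the level was 9.43 CPM, under the 10 CPM that a call needs. After physical injury 0 of 9 were past it, beside 6.33%. The remaining clusters of the NG2 line stayed at or below 4.66 CPM, and those of the Tbx18 line at or below 6.14 CPM. In OPCs Cyp26b1 was at 1.76, 2.11 and 6.08 CPM in naïve, physical injury and ischemic injury cells, and the last of these was its highest level in the NG2 line. OPCs also held the highest Rbp4 of the NG2 line (7.03, 4.76 and 2.53 CPM, from 4, 18 and 10 counts), all under the 10 CPM limit. Their Rarb, at 35.2, 39.9 and 31.6 CPM, was close to that of pericytes.

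In oligodendrocytes (cluster 4) Rarb was at 7.64 CPM in naïve, 11.9 CPM in physical injury and 18.4 CPM in ischemic injury cells, from 10, 84 and 318 counts. It was 2.4-fold higher after ischemic injury than in naïve cells (log2 ratio 1.26, 0.37 to 2.34), 1 of 9 members beside 8.33% of all genes. In the same cluster 0 of 9 were past the fold after physical injury, beside 3.50%, and between the injuries, beside 2.98%. The ischemic injury ratio changed with the weight given to deep cells. When each cell was given the same weight it was -0.01, and without the 5% of cells with the most UMIs it was 0.54.

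Stra6, the retinol uptake receptor, was found in the endothelial cells of both lines, and in the Tbx18 line also, at higher levels, in cluster 4 described further on. In the NG2 line (cluster 5) it was at 50.2 CPM (34.3 to 70.8) in naïve, 30.6 CPM (25.2 to 36.8) in physical injury and 17.3 CPM (13.8 to 21.5) in ischemic injury cells, from 32, 113 and 82 counts. It was 2.9-fold lower after ischemic injury than in naïve cells (log2 ratio -1.54, -2.14 to -0.90), while the physical injury ratio (-0.71) and the difference between the injuries (-0.82, -1.25 to -0.40) were within the fold. When naïve cells of both lines were clustered together, 68 naïve cells of NG2 cluster 5 fell in cluster 10 and 33 in cluster 13. Stra6 was at 71.4 CPM in the former and 19.2 CPM in the latter, from 27 and 5 counts. The part of this mix in the Stra6 ratios was not tested. Endothelial Rdh10 of NG2 cluster 5 was at 6.27, 13.5 and 17.5 CPM, from 4, 50 and 83 counts. It passed the fold after ischemic injury (1.48, 0.07 to 3.39). So 2 of 9 members were past the fold in this cluster, 1 each way, beside 6.20% of all genes. After physical injury 0 of 9 were, beside 5.30%, and between the injuries 0 of 9, beside 2.33%. Every pericyte cluster of the NG2 line from 0 to 2 had 0 Stra6 counts in both injured libraries, where 3 counts would be 1.27 to 3.2 CPM.

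In the Tbx18 line the order of the libraries was the same, with smaller steps. Endothelial Stra6 (cluster 0) was at 48.5 CPM in naïve, 35.7 CPM in physical injury and 26.9 CPM in ischemic injury cells, from 36, 440 and 379 counts. The log2 ratios were -0.44 and -0.85 against naïve cells and -0.41 between the injuries. None of the 9 members was past the fold in these comparisons, beside 10.5, 10.4 and 0.501% of all genes. In smooth muscle cells (cluster 1) physical injury could be compared with naïve cells, and there too 0 of 9 members were past the fold, beside 12.2%. Rarb alone reached 10 CPM there, at 34.7 CPM in naïve and 21.6 CPM in physical injury cells. A Stra6 UMI was found in 10.1, 16.6 and 16.7% of the endothelial cells of the naïve, physical injury and ischemic injury libraries, at median depths of 2600, 6701.5 and 8981 UMIs, so the order of the shares was not that of the levels. In smooth muscle cells after physical injury, with a median of 10561 UMIs, the share was 0.363%. Among naïve cells clustered for both lines together, Stra6 was at 71.4 CPM (47.1 to 104) in NG2-tdT+ and 63.7 CPM (42.7 to 91.5) in Tbx18-tdT+ endothelial cells of cluster 10, with overlapping intervals. Of the 159 naïve cells of Tbx18 cluster 0, that clustering placed 63 in cluster 10, 19 in cluster 13 and 68 in cluster 6. The 246 Tbx18-tdT+ cells of cluster 6 had Stra6 at 28.5 CPM and a median of 1647 UMIs. The part of this mix in the Tbx18 ratios was not tested.

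The highest levels of Aldh1a1 and Aldh1a2 were in the fibroblasts of the Tbx18 line (cluster 5), which were almost all from the physical injury library (116 cells, against 5 naïve and 10 ischemic injury cells). After physical injury Aldh1a1 was at 773 CPM (715 to 833) and Aldh1a2 at 445 CPM (402 to 492). The first was detected in 98 of 116 cells (84.5%), the second in 86. Both dehydrogenases were found together in 81 cells, where the product of the shares gives 72.7. Rdh10 was at 131 CPM (108 to 158) and Rarb at 165 CPM (139 to 194). Crabp2 (16.1 CPM), Stra6 (10.4 CPM) and Rbp4 (5.77 CPM) were lower. In the same library the smooth muscle cells had Aldh1a1 in 0.363% of cells. In cells of this cluster the meningeal barrier list (Slc47a1, Slc6a13, Ptgds, Igfbp2 and Cdh1) summed to 20566 CPM and fibroblast markers to 9942 CPM. The list was not evenly held. Over all libraries, Slc6a13 was at 1966 CPM and Igfbp2 at 1790 CPM in this cluster. Most of the sum therefore came from other genes of the list, not given singly here. Slc47a1 was instead a leading gene of cluster 4, at 331 CPM there and 0.547 CPM in the rest of the line's cells, these fibroblasts included. Too few cells of the other libraries were in the cluster for any ratio.

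Cluster 4 of the Tbx18 line held most of the Crabp2 and the highest Stra6 of the series. Crabp2 was at 3.43 CPM in naïve cells (1 count), 180 CPM (164 to 196) after physical injury (491 counts) and 139 CPM (119 to 161) after ischemic injury (181 counts), in 157, 349 and 143 cells. The ratios to naïve cells were 52.4-fold (log2 ratio 5.71, 3.23 to 11.02) and 40.5-fold (5.34, 2.84 to 10.65). Cells with a Crabp2 UMI made up 0.637, 42.4 and 35.7% of the cluster. After injury, smooth muscle cells of the physical injury library had a share of 0.363%, and with 1000 UMIs per cell the shares in cluster 4 were 15.4 and 12.9%. Stra6 was at 24 CPM in naïve, 126 CPM in physical injury and 114 CPM in ischemic injury cells (5.24-fold and 4.76-fold), and Aldh1a2 at 6.87, 44.7 and 68.4 CPM (6.51-fold and 9.96-fold, from 2, 122 and 89 counts). Rbp4 had 0 counts in naïve cells and was at 7.69 and 7.68 CPM after injury. Rarb was at 65.2, 78.7 and 41.5 CPM and Rdh10 at 24, 9.15 and 9.22 CPM, not past the fold.

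These ratios do not compare like cells. In each comparison with naïve cells 3 of 9 members were past the fold, beside 34.2% of all genes after physical injury and 42.2% after ischemic injury, and the median log2 ratio of all genes was -0.322 and -0.658. Naïve cells of the cluster had a median of 1724 UMIs and carried pericyte, smooth muscle and endothelial markers (15468, 8829 and 2365 CPM), whereas pericyte markers were nearly absent after injury. Between the injuries, Aldh1a1 was at 26.7 CPM after physical and 13.1 CPM after ischemic injury, from 73 and 17 counts, and just passed the fold (-1.03, -1.89 to -0.26), 1 of 9 members beside 13.0% of all genes. With another normalization (TMM factors) it was within the fold.

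The injured cells of cluster 4 fell into kinds that differed in the members they held. In a division chosen after the values were seen, cells with at least 1 UMI of Slc47a1, a transporter gene of the meningeal barrier list, were set beside the others. After physical injury, Crabp2 was at 387 CPM in the 141 cells with Slc47a1 and 47.9 CPM in the 208 cells without, Stra6 at 200 and 79 CPM, Rarb at 193 and 5.99 CPM and Aldh1a1 at 67.9 and 0.599 CPM. Aldh1a2 was the reverse, at 0.942 and 72.4 CPM. After ischemic injury, the 35 cells with Slc47a1 had Crabp2 at 326, Stra6 at 303, Rarb at 153 and Aldh1a1 at 53.2 CPM, and the 108 cells without had 82.9, 57.9, 7.99 and 0.999 CPM. Aldh1a2 had 0 counts with Slc47a1, where 3 counts would be 9.98 CPM, and was at 88.9 CPM without. Both injured libraries therefore showed the same division, with Crabp2, Stra6, Rarb and Aldh1a1 on the Slc47a1 side and Aldh1a2 on the other.

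The sides also differed in other genes. Cells with Slc47a1 had the bicarbonate transporter gene Slc4a10 at 2922 CPM after physical injury, against 22.8 CPM without. Summed smooth muscle markers were at 238 and 86.5 CPM with Slc47a1 after physical and ischemic injury, and at 7530 and 7413 CPM without. Microglial markers were at 77.3 and 86.5 CPM with and 636 and 689 CPM without. The meningeal barrier list without Slc47a1 itself was at 3715 and 2911 CPM with and 1308 and 1189 CPM without. After physical injury 77 cells held both Stra6 and Crabp2, where the product of shares gives 48.8, and 1 cell held both Aldh1a1 and Aldh1a2, where it gives 2.7. In the fibroblasts of cluster 5, by contrast, most cells held both dehydrogenases.

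**Figure D5:**
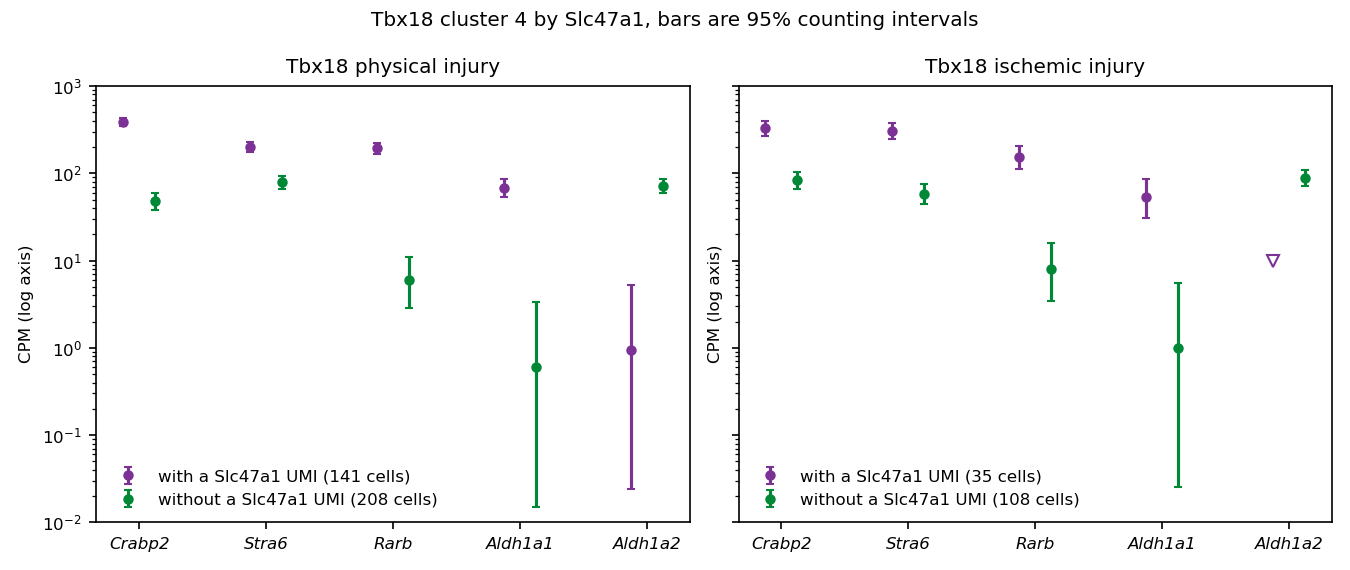
Levels in CPM (log axis) of members in injured cells of Tbx18 cluster 4 with and without a Slc47a1 UMI, physical injury on the left and ischemic injury on the right, with bars for 95% counting intervals. An open triangle marks 0 counts, drawn at the floor of 3 counts. Crabp2 (387 against 47.9 CPM, physical injury) is higher with Slc47a1, and Aldh1a2 (0.942 against 72.4 CPM) is higher without.

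In Tbx18 cluster 3, Aldh1a2 was at 8.87 CPM in naïve, 12.8 CPM in physical injury and 6.05 CPM in ischemic injury cells, and it was 2.12-fold lower after ischemic than after physical injury (log2 ratio -1.08, -1.83 to -0.36), from 25 and 51 counts, 1 of 9 members beside 2.87% of all genes. Against the naïve cells of this cluster, which carried pericyte markers, Aldh1a1 (71 CPM in naïve cells, 2.01 and 1.45 CPM after injury) and Rarb (62.1, 3.01 and 5.08 CPM) were lower. That is 2 of 9 members beside 40.5 and 40.2% of all genes, with cells of other types on each side.

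The genes most like each member in pattern across clusters are given as a description. Over the 27 cluster and library groups of the NG2 line, Pearson's r of log2(CPM + 1) was highest with Anp32e (0.91), Pyy (0.91) and Vgf (0.89) for Aldh1a3, with Mmp11, Col5a3 (both 0.93) and Dcn (0.91) for Rdh10, with Sema3g (0.99), Ccm2l and Dipk2b (both 0.98) for Stra6, with Adk (0.87), G0s2 and Ptk7 (both 0.86) for Aldh1a1, and with Cacna2d1, Abat (both 0.89) and Chpf (0.88) for Rarb. Over the 15 groups of the Tbx18 line it was highest with Smoc1 (0.99), Mpzl2 (0.98) and Crabp1 (0.97) for Crabp2, with Enpp1 (0.95), Ddost (0.91) and Edil3 (0.90) for Aldh1a2, with Aox3 (0.93), Scube1 (0.92) and Nrxn2 (0.91) for Aldh1a1, and with P3h3, Gli3 (both 0.97) and Ltbp3 (0.95) for Rarb. In the same line it was highest with Gja1, Txnl1 and Car14 (all 0.94) for Stra6. For Rdh10 it was highest with Slc1a3 (0.94), Imp3 (0.92) and Man1a2 (0.91). Groups of 1 library share a sort and a depth, and groups of 1 cluster share a cell type. Among the 5 members with at least 200 counts in the NG2 line, Aldh1a1 and Rdh10 were the most alike (0.72), Stra6 and Rarb the most opposed (-0.74), and Aldh1a3 was close to unrelated to the other members (-0.16 to 0.05).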

How the data were processed

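The deposited values are raw UMI counts per gene and cell, made by the authors with Cell Ranger (7.0.0 in the processing notes) on mm10, for cells that had passed the authors' filters and carry the cluster numbers of their Seurat objects. The authors also deposited each cell's percent of mitochondrial UMIs, used here only to apply their filter again. Counts were summed per cluster and library, with no normalization beyond CPM. Groups came from the labels, 1 pooled library each. Intervals were exact (Poisson, and Clopper-Pearson for shares; conditional binomial for ratios). Scripts were tested on simulated data. The members and the gene and marker lists were chosen with earlier results of these data known. All 9 members were named, the wider list's genes at 10 CPM or more, and the 3 most alike genes of members with at least 200 counts, among genes at 50 CPM. A gene of the wider list is not reported here. Gene positions came from the mm10 annotation at hand, which may not be the authors'. Neither labels nor methods mention doublets: Scrublet called 67 of 17033 cells, too few to have worked, so all cells were kept and the 460 with the highest scores were left out in an alternative. Other alternatives were TMM factors, the study's filters again, other minimum levels, means over cells, and leaving out the deepest cells or the cell with the most UMIs. Software: edgeR 4.0.16 in R 4.3.3, and scanpy 1.11.5, matplotlib 3.10.9, pandas 2.3.3, scipy 1.17.1 and numpy 2.4.6 in Python 3.11.15.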

Additional observations from a re-analysis of the deposited data

Results flagged for a closer look

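After injury, Aldh1a1 and Rarb lay below naïve cells in the summed pericyte clusters 0, 1 and 2 of the NG2 line and above them in cluster 2 of the Tbx18 line. This difference was not tested, since each group is 1 library. With NG2 clusters 0, 1 and 2 summed, the log2 ratio of Aldh1a1 to naïve cells was -1.03 after physical and -0.56 after ischemic injury. In Tbx18 cluster 2 it was 1.73 and 2.59. For Rarb the ratios were -0.27 and -0.30 in the NG2 line and 1.26 and 1.70 in the Tbx18 line. By cluster, the ratios of the Tbx18 line were past the fold, and in the NG2 line only that of Aldh1a1 in cluster 0 after physical injury was (-1.61). Rarb in NG2 cluster 1 after physical injury lay slightly above naïve cells (25.7 against 24.2 CPM). The sets are also unlike. The NG2 sum leaves out the mesenchymal-like pericytes of cluster 8, whereas Tbx18 cluster 2 held cells with mesenchymal markers. The cells of Tbx18 cluster 2 differed between libraries too: mesenchymal markers summed to 346, 1668 and 2242 CPM and pericyte markers to 30599, 19424 and 18878 CPM in naïve, physical injury and ischemic injury cells. In the injured cells without a mesenchymal marker UMI, Aldh1a1 was at 14.6 CPM after physical injury and 18.2 CPM after ischemic injury, the former from few counts and the latter from very few. The part of these differences in the contrast was not tested.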

How the results depend on the processing

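No paired analysis was possible because each group is 1 library and no test was made. Counts are of members past the fold, over the clusters compared, with 9 members in each cluster, those too low to be called included. With the main settings, the share of all genes past the fold ran by cluster from 1.44 to 11.6% after physical injury in the NG2 line. After ischemic injury it ran from 1.43 to 18.0%. Between the injuries it ran from 2.33 to 8.29% in the NG2 line and from 0.501 to 13.0% in the Tbx18 line. Against naïve Tbx18 cells it ran from 10.4 to 42.2%, and between the naïve lines from 8.66 to 11.4%. After physical injury in the NG2 line the count was 3, 4 with TMM factors, 2 with a minimum of 50 CPM and 3 under the other alternatives run. After ischemic injury it was 8, and 4 with a minimum of 50 CPM. Between the injuries it was 7 in the NG2 line, 1 at 50 CPM and 11 with no minimum level. In the Tbx18 line it was 2 between the injuries, 1 with TMM factors, with the study's filters applied again or without the deepest 5% of cells, and 0 at 50 CPM. Against naïve Tbx18 cells it stayed at 13 to 16, beside 14. Between the naïve lines it was 0, and 2 with no minimum. For the wider list of 42 genes it was 103, and 51 at 50 CPM. The number of listed genes tested differed by cluster, and the shares of all genes given above ran from 0.501 to 42.2%. This count is therefore not read further. A set of 27 single ratios and 36 single levels was recomputed under each alternative that applied, and each recomputation is counted as 1 result. Of the results for ratios, 157 moved by less than the counting interval, 4 moved further and 1 reversed: Rarb in oligodendrocytes, ischemic minus naïve, at -0.01 as a mean over cells. Of the results for levels, 177 moved by less and 40 by more, and the 12 shares of cells with a UMI moved on thinning. Low counts limit Rbp4, Cyp26b1 and every naïve Tbx18 value.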

Other observations

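Other genes of the pathway were taken from a list of 42 chosen by function. Fabp5, a binding protein for fatty acids and retinoic acid, was at 806, 997 and 2175 CPM in naïve, physical injury and ischemic injury oligodendrocytes of the NG2 line, and at 1022 and 813 CPM in RGPs after physical and ischemic injury. Crabp1, the other retinoic acid carrier, was at 94.1 and 86 CPM in Tbx18 cluster 4 after physical and ischemic injury. Rlbp1, a retinal binding protein, was at 236, 257 and 178 CPM in OPCs. Ttr, which carries Rbp4 in blood, was at 473 CPM in Tbx18 cluster 4 after physical injury, with 1281 of 1291 counts in 1 cell and 3.68 CPM without it.

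In mesenchymal-like pericytes (NG2 cluster 8) after ischemic injury, 2 of the 18 listed genes tested were past the fold upward (Scarb1 and Fabp5) and 4 downward, among them Rdh5, Dhrs3 and Rarg, beside 18.0% of all genes in either direction, with a median log2 ratio of -0.491 beside -0.154 over all genes. Rarg, another retinoic acid receptor, was highest in endothelial cells of the NG2 line (53.3, 38.7 and 30.4 CPM) and Dhrs3, which turns retinal back to retinol, in ischemic injury microglia (105 CPM) and smooth muscle cells (53.2 to 78.2 CPM).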
